A study of Mus musculus with 15 samples.

Results

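The endoplasmic reticulum (ER) is where hormone precursors enter the secretory pathway. This account follows 35 genes of its folding, import and stress machinery in newborn mouse pituitary, out of 18193 genes measured. The genes were listed by name, and each was read from 1 probe set, the one with the highest mean over all 15 arrays. All 35 were measured. They comprise 9 lumenal chaperones and co-chaperones, 6 lectin chaperones and disulfide isomerases, 7 stress sensors and transcription factors, 4 genes of ER-associated degradation, and 9 genes of the translocon, the TRAP complex and the signal peptidase.

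The RNA came from pituitaries of postnatal day 1, and every pool, made from animals of 1 genotype, had its own Affymetrix Mouse Genome 430 2.0 array. The 3 groups of 5 pools were Pit1+/+ (wild type, strain background DW/J), Pit1dw/dw (DW/J) and Prop1df/df (DF/B). dw is the Snell dwarf allele of Pit1 (Pou1f1), the POU-domain factor that growth hormone, prolactin and thyrotropin cells need. All mice had a high fat chow. Wild-type animals of the DF/B background were not analysed here, so strain and genotype cannot be told apart wherever Prop1df/df is compared. The titles call the pools biological replicates. The number and sex of the animals in a pool were not given in the sources used here, so p-values measure the spread between pools. In pooled tissue RNA, fewer cells of a type and less RNA per cell cannot be told apart.

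The question put to these genes was whether the secretory machinery is lower when the main hormone load is lost. A secretory cell imports its hormone precursors into the ER through the Sec61 channel, where signal peptidase removes the signal sequence and chaperones and disulfide isomerases fold the chain. When unfolded protein builds up, the sensors IRE1 (Ern1), PERK (Eif2ak3) and ATF6 start the unfolded protein response, which raises chaperone and degradation genes through XBP1, ATF4 and ATF6. Plasma cells and pancreatic islet cells, both heavy secretors, depend on this system.

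The hormone load itself differed between the groups as follows. Growth hormone (Gh) lay between 14.15 and 14.28 log2 units in the wild-type pools and between 7.15 and 10.31 in the Pit1dw/dw pools, a log2 change of -5.40 (SE 0.88, limma, adjusted p = 0.00586). Of 7 hormone genes, 3 (Gh, Prl and Tshb) fell in Pit1dw/dw and 6 in Prop1df/df. The one that did not pass in Prop1df/df was Gh itself, at -2.04 (adjusted p = 0.165). Prl was dim, averaging 4.29 in wild type, below the median of all values (4.37). Not all of the load was lost in Pit1dw/dw. Pomc averaged 13.93 in wild type and 14.12 in Pit1dw/dw, and Cga 12.80 and 12.25. Neither passed in limma's test (adjusted p = 0.684 and 0.482). Prop1df/df pools 1, 2 and 3 had Gh at 13.58, 14.07 and 14.03 and Tshb at 9.68 to 9.89, whereas pools 4 and 5 had Gh at 8.99 and 10.24 and Tshb at 6.28 and 7.17. The receptor genes of the Pit1 lineage were below every wild-type pool in pools 1, 2 and 3. Ghrhr was 5.98 to 7.69 there against 9.45 to 9.85 in wild type, and Trhr 4.31 to 4.58 against 6.35 to 7.72. These 3 pools stand apart from the other Prop1df/df pools. Their labels give the same genotype and strain as pools 4 and 5, and the genotype itself was not tested here, so it is in doubt what a Prop1df/df mean over all 5 pools stands for. Calls of members, marker genes and pathway genes in Prop1df/df are given with and without the 3 pools. Without them Gh passed (-4.61, adjusted p = 0.00180), as did Prl, Tshb and Cga, whereas Pomc, Lhb and Fshb lost their calls. The genotype field of wild-type pool 1 reads Prop1df/df, unlike its title and its strain. On a scale with 0 at the other wild-type pools and 1 at a mutant group, its median position was 0.0148 over 15 genes against Pit1dw/dw and -0.0121 over 74 genes against Prop1df/df, and it was kept under its title.

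What the promoters of these genes share was read from RefSeq sequences (build GRCm38.p6), which covered 29 of the 35 members with 250 bases before and 50 after the start site. On both strands they were searched for the ER stress response element (ERSE, CCAAT and CCACG separated by 9 bases, bound by NF-Y and ATF6), for ERSE-II (ATTGG and CCACG separated by 1 base), for the XBP1 element UPRE (TGACG followed directly by TGG) and for an ATF4 composite element (TGATG and AAT separated by 1 base). ERSE and ERSE-II share the CCACG end. ERSE letters were found in 8 of 29 member promoters (27.6%), against 37 of 27025 genes with a promoter in the table (0.137%). ERSE-II letters were in 2 of 29 (6.90%) against 0.0444% of genes. UPRE and ATF4 element letters were in 0 of 29, against 0.714% and 1.08% of genes. ERSE was first defined on promoters of such chaperone genes, so its share here describes the membership.

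2 promoters are shown for the chaperones with the best known stress elements, 1 for an ERSE-II gene, and 2 for the members that passed the test in Prop1df/df, which hold none of these letters. Each runs in the direction of its gene, with the matched letters in capitals.
Hspa5, chr2:34771840-34772139, plus strand: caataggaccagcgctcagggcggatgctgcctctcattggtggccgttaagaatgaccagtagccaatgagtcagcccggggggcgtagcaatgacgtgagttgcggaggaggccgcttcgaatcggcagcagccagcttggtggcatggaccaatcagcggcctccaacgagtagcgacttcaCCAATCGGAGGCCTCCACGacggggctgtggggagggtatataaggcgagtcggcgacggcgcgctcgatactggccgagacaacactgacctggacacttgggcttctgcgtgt
Hsp90b1, chr10:86705395-86705694, minus strand: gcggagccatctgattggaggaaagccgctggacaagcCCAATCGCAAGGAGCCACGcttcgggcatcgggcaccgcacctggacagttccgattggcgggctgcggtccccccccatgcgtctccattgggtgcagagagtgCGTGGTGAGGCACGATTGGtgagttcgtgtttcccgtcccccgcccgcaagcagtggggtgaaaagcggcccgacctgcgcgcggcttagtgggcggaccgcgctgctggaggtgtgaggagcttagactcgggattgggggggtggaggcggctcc
Herpud1, chr8:94386179-94386478, plus strand: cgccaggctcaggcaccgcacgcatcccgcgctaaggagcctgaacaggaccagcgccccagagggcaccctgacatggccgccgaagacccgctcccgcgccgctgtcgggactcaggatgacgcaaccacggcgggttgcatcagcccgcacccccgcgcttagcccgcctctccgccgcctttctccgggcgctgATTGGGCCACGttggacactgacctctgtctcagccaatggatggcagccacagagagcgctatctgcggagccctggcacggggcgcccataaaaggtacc
Sdf2l1, chr16:17132334-17132633, minus strand: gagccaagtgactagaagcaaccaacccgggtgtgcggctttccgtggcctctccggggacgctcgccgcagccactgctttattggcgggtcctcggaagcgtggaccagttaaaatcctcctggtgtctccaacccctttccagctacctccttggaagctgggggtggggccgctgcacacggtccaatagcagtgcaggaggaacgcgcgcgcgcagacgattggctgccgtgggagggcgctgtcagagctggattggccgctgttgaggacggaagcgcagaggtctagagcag
Ssr4, chrX:73786773-73787072, plus strand: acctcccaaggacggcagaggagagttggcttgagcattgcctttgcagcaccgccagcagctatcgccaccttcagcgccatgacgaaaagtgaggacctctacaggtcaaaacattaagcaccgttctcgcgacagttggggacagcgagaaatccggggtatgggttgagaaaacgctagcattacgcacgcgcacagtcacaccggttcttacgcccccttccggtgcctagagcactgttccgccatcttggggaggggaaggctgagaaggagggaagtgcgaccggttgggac
Hspa5 and Hsp90b1 encode BiP and GRP94, the lumenal HSP70 and HSP90, and Herpud1 an ER membrane protein of the degradation machinery. The Hsp90b1 promoter holds an ERSE on each strand. The other 6 ERSE matches, and the ERSE-II of Dnajb11, are given as read on the motif's own strand, with positions counted from the start site.
Dnajc3, -105 to -87: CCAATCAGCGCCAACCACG
Creld2, -126 to -108: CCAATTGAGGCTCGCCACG
Calr, -162 to -144: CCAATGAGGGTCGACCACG
Canx, -145 to -127: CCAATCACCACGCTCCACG
Pdia6, -98 to -80: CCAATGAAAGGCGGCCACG
Syvn1, -44 to -26: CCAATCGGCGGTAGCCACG
Dnajb11, 8 to 18: ATTGGCCCACG
In Pit1dw/dw against wild type, the 10 members with ERSE or ERSE-II letters had a median log2 change of -0.031 and the 19 others with a promoter -0.065. In Prop1df/df the medians were -0.069 and -0.084.

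Without Pit1, the ER machinery showed no change that passed the test. In limma's fit to all genes, 0 of the 35 members passed an adjusted p of 0.05 in Pit1dw/dw against wild type, where 140 of all genes did (0.770%), and 1 member, Ern1, had an unadjusted p under 0.05 (8.46% of all genes). The members' median log2 change was -0.065, against -0.020 over all genes, and 28 of 35 changes were below 0, against 54.8% of all genes. All 35 of the 95% intervals lay within 2-fold of no change and 26 within 1.5-fold. The lowest bound, that of Sdf2l1, was -0.70 and the highest, that of Sel1l, was 0.65. Changes inside these intervals could not be told from none with 5 pools a group.

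In Prop1df/df against the same wild-type pools, 2 members passed, Ssr4 and Sdf2l1, both lower. The background was 1920 of all genes (10.6%), with 7.31% lower and 3.25% higher. Whether the members' share differs from that was not tested, and over the 28 alternative settings the count ran from 0 to 8, with 8 under array weights. At an unadjusted p under 0.05 there were 5 members (Dnajb9, Sdf2l1, Atf6, Xbp1 and Ssr4), all lower, against 24.4% of all genes. The median was -0.12 against -0.039 over all genes, with 27 of 35 members below 0 against 55.8%. Of the intervals, 34 lay within 2-fold and 27 within 1.5-fold. Both comparisons use the same wild-type pools, so their values are not independent of each other.

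**Figure D1:**
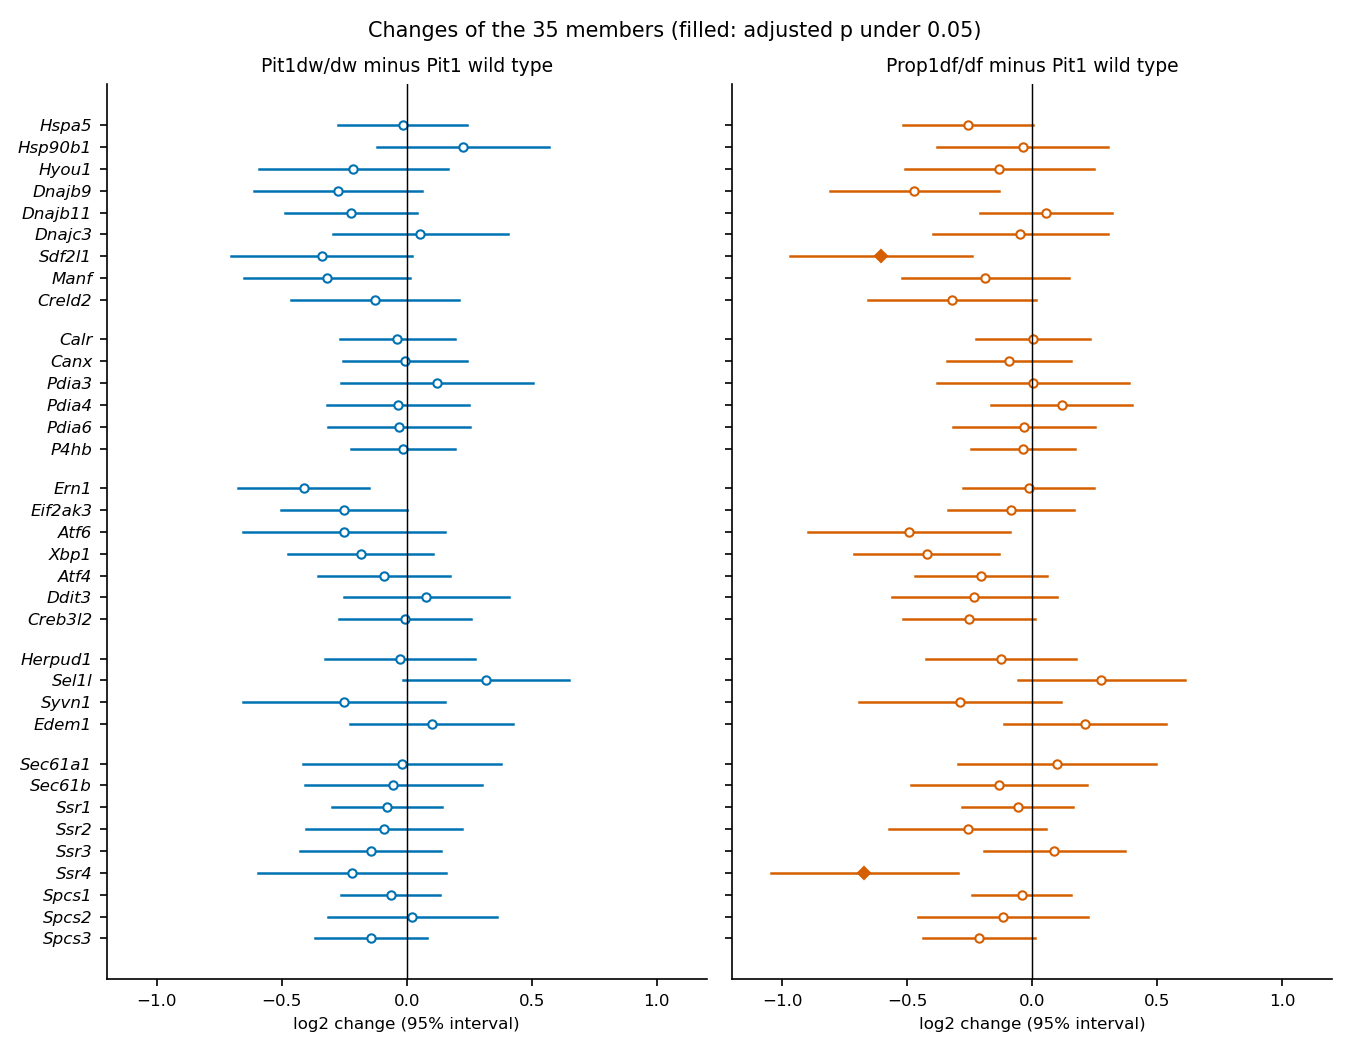
Log2 change of each of the 35 members (points) with its 95% moderated interval (lines), ordered by role, in Pit1dw/dw and in Prop1df/df against the same 5 wild-type pools. All intervals on the left stay within 1 log2 unit of 0, and the 2 filled diamonds on the right are Sdf2l1 and Ssr4.

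Lumenal chaperones hold unfolded chains in solution. BiP, the central one, also binds the stress sensors and keeps them inactive. Hspa5 signals were 11.22, 11.45, 10.95, 11.22 and 11.22 in the wild-type pools, 11.29, 11.20, 11.06, 11.25 and 11.16 in Pit1dw/dw, and 10.76, 10.82, 11.09, 10.79 and 11.32 in Prop1df/df. The 3 groups overlapped. The log2 change was -0.017 (95% interval -0.28 to 0.24) in Pit1dw/dw and -0.26 (-0.51 to 0.0029, adjusted p = 0.210) in Prop1df/df, where 3 pools lay below every wild-type pool and pool 5 above all but wild-type pool 2.

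Manf, a secreted folding factor that is released on ER calcium loss, had the smallest p of this role in Pit1dw/dw. Its signals were 8.97, 9.36, 8.40, 8.93 and 8.78 in wild type, 8.44, 8.67, 8.48, 8.56 and 8.69 in Pit1dw/dw, and 8.29, 8.90, 8.83, 8.67 and 8.81 in Prop1df/df. Wild-type pool 3 was below all Pit1dw/dw pools, and the other 4 were above them. The log2 change of -0.32 (SE 0.16) did not pass (adjusted p = 0.626).

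Sdf2l1, a partner of the DNAJB11 co-chaperone in the lumen, was one of the members that fell in Prop1df/df. Its signals were 4.36, 4.83, 3.98, 4.46 and 4.66 in wild type, 4.50, 4.07, 3.79, 4.03 and 4.19 in Pit1dw/dw, and 3.45, 3.80, 3.94, 3.98 and 4.10 in Prop1df/df. The probe set is dim: only 4 of 15 pools exceeded 4.37, the median of all values on the arrays. The Prop1df/df pools lay below the wild-type pools except that wild-type pool 3 fell within their range. The log2 change was -0.60 (SE 0.17, 1.52-fold lower, adjusted p = 0.0331 by limma), and -0.42 (adjusted p = 0.366) without Prop1df/df pools 1, 2 and 3. In Pit1dw/dw it was -0.34 (adjusted p = 0.640).

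The other 6 lumenal members passed in no comparison. Dnajb9 (ERdj4, a co-chaperone that reports IRE1 activity) averaged 8.19 ± 0.21 (SD, n = 5) in wild type, 7.92 ± 0.18 in Pit1dw/dw and 7.72 ± 0.35 in Prop1df/df, and its log2 change in Prop1df/df was -0.47 (adjusted p = 0.0716). Creld2, a disulfide-linked stress target, averaged 7.80 ± 0.20, 7.67 ± 0.24 and 7.48 ± 0.32 in the same order. Hsp90b1, Hyou1 (the HSP70-like GRP170), Dnajb11 and Dnajc3 (co-chaperones of BiP) had log2 changes between -0.22 and 0.22 in Pit1dw/dw and between -0.13 and 0.056 in Prop1df/df. The Hsp90b1 probe set used was 8.67 to 9.18 in wild type, 8.62 to 9.66 in Pit1dw/dw and 8.80 to 9.07 in Prop1df/df. Another (1415889_a_at) was 8.72 to 9.21, 8.45 to 8.88 and 8.02 to 8.80 in the same order. Its mean was lower in Pit1dw/dw, where that of the one used was higher, and it did not pass. Over the role, the median log2 change was -0.21 in Pit1dw/dw and -0.19 in Prop1df/df.

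Calnexin (Canx) and calreticulin (Calr) bind glycoprotein precursors, and the disulfide isomerases Pdia3, Pdia4, Pdia6 and P4hb form and reshuffle their bonds. This role lay closest to 0. The 6 log2 changes ran from -0.038 to 0.12 in Pit1dw/dw and from -0.092 to 0.12 in Prop1df/df, 0 of them passed in limma's test and 0 had an unadjusted p under 0.05 in any comparison. All 6 intervals lay within 1.5-fold in each of the 3 comparisons. Calr averaged 10.96 ± 0.10 in wild type, 10.92 ± 0.18 in Pit1dw/dw and 10.96 ± 0.15 in Prop1df/df (SD, n = 5 each), and P4hb 11.53 ± 0.18, 11.51 ± 0.09 and 11.49 ± 0.08.

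Pdia3 (ERp57, the isomerase that works with the lectins) had the smallest p of the role in Pit1dw/dw. Its signals were 10.01, 10.59, 9.55, 10.01 and 10.54 in wild type, 10.18, 10.26, 10.01, 10.27 and 10.59 in Pit1dw/dw, and 10.39, 10.28, 9.99, 9.94 and 10.12 in Prop1df/df. Both mutant groups lay inside the wild-type range. The log2 changes were 0.12 (SE 0.18, adjusted p = 0.944) and 0.0052 (adjusted p = 0.990). The isomerase Pdia4 was dim, below the median of all values in all 15 pools, and its log2 change was -0.035 in Pit1dw/dw and 0.12 in Prop1df/df.

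The stress sensors and transcription factors of the unfolded protein response act when the ER is under load. Only their mRNA was measured here, not their activity. Ern1 encodes IRE1, the sensor that splices Xbp1 mRNA. Its signals were 7.27, 7.60, 7.28, 7.42 and 7.62 in wild type, 7.19, 7.09, 6.93, 7.18 and 6.73 in Pit1dw/dw, and 7.50, 7.71, 7.36, 7.22 and 7.33 in Prop1df/df. Every Pit1dw/dw pool lay below every wild-type pool and below every Prop1df/df pool. The highest Pit1dw/dw pool, at 7.19, was close to the lowest pools of the other groups, at 7.27 and 7.22. By the probe sets used, Ern1 was the only member whose groups did not overlap in Pit1dw/dw against wild type (2.78% of all genes). The log2 change was -0.41 (SE 0.12, 1.33-fold lower), with an adjusted p of 0.220 by limma, so it did not pass. In Prop1df/df it was -0.014 (adjusted p = 0.959), and between the 2 mutants 0.40 (SE 0.12, adjusted p = 0.0719). The other 4 probe sets of Ern1 averaged 2.67 to 4.04 over the arrays, below the median of all values.

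Xbp1 makes the transcription factor downstream of IRE1 and is itself raised under load. These probe sets do not separate its spliced from its unspliced form. Its signals were 7.91, 7.99, 7.87, 7.78 and 7.76 in wild type, 7.68, 7.78, 7.57, 7.995 and 7.36 in Pit1dw/dw, and 7.19, 7.34, 7.88, 7.41 and 7.39 in Prop1df/df. In Prop1df/df, 4 pools were below all wild-type pools and pool 3 was inside the wild-type range. The log2 change was -0.42 (SE 0.14, adjusted p = 0.0601) in Prop1df/df and -0.19 (adjusted p = 0.813) in Pit1dw/dw. Its other 3 probe sets gave -0.32 to -0.35 in Prop1df/df, and none of them passed.

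Ddit3 encodes CHOP, which marks prolonged stress. Its signals were 7.15, 7.23, 6.93, 7.27 and 6.58 in wild type, 6.97, 7.14, 6.999, 7.06 and 7.39 in Pit1dw/dw, and 6.37, 6.77, 7.01, 6.76 and 7.10 in Prop1df/df. All 3 groups overlapped. The log2 changes were 0.078 (95% interval -0.25 to 0.41) and -0.23 (-0.56 to 0.10), neither past the threshold. Another Ddit3 probe set (1443897_at) had mean changes of the opposite sign in both comparisons and did not pass. It was 4.98 to 5.84 in wild type, 4.61 to 5.35 in Pit1dw/dw and 5.18 to 5.52 in Prop1df/df.

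Of the other members of this role, Atf6 (the sensor cleaved in the Golgi) averaged 6.88 ± 0.43 in wild type, 6.63 ± 0.23 in Pit1dw/dw and 6.39 ± 0.26 in Prop1df/df (SD, n = 5 each), and its log2 change of -0.49 in Prop1df/df did not pass (adjusted p = 0.117). Eif2ak3, the PERK kinase that slows translation, changed by -0.25 (95% interval -0.50 to 0.0013) in Pit1dw/dw and -0.084 in Prop1df/df. Atf4, the factor translated when PERK is active, gave -0.092 and -0.20. Creb3l2, a membrane-bound factor that raises transport genes, gave -0.0078 and -0.25. All 7 changes of the role were below 0 in Prop1df/df and 6 of 7 in Pit1dw/dw.

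**Figure D2:**
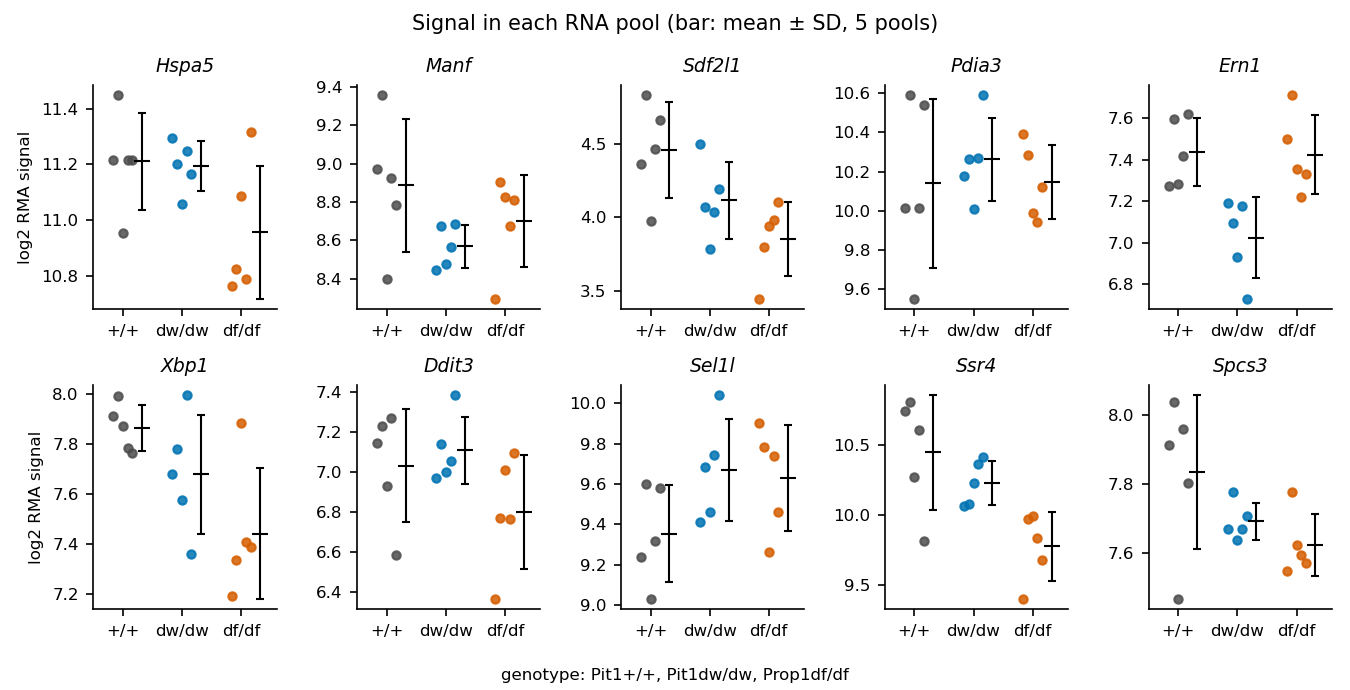
Log2 RMA signal (y axis) in every pool of the 10 members given pool by pool, by genotype (x axis). Points are pools, and bars are the mean and SD of 5 pools. Ern1 is lowest in Pit1dw/dw with no overlap, Ssr4 is lowest in Prop1df/df with 1 wild-type pool inside its range, and the scale of each panel differs.

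Misfolded chains leave the ER for the proteasome through the SEL1L and HRD1 (Syvn1) complex, with Edem1 as mannose-trimming selector and Herpud1 as organiser. 0 of these 4 members passed in limma's test, and 0 had an unadjusted p under 0.05 in any of the 3 comparisons. Sel1l signals were 9.24, 9.60, 9.03, 9.32 and 9.58 in wild type, 9.41, 9.68, 9.46, 9.74 and 10.04 in Pit1dw/dw, and 9.90, 9.78, 9.26, 9.74 and 9.46 in Prop1df/df. Of the mutant pools, 3 of 5 in each group lay above every wild-type pool. Its log2 changes were 0.32 (SE 0.16, adjusted p = 0.631) and 0.28 (adjusted p = 0.298). Another Sel1l probe set (1425187_at) was 6.71 to 7.25 in wild type and 7.33 to 7.83 in Pit1dw/dw, with no overlap, and did not pass. It was 6.98 to 7.49 in Prop1df/df. Syvn1 gave -0.25 and -0.29, Edem1 0.099 and 0.21, and Herpud1 -0.029 and -0.12.

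The entry gate comprises the Sec61 channel (Sec61a1, Sec61b), the 4 subunits of the translocon-associated protein complex TRAP (Ssr1 to Ssr4), which help chains enter, and 3 subunits of signal peptidase (Spcs1 to Spcs3). Ssr4, the delta subunit of TRAP, was the other member that fell in Prop1df/df. Its signals were 10.74, 10.81, 10.27, 10.60 and 9.81 in wild type, 10.06, 10.08, 10.23, 10.36 and 10.41 in Pit1dw/dw, and 9.40, 9.97, 9.99, 9.84 and 9.68 in Prop1df/df. Wild-type pool 5 lay among the Prop1df/df pools, and the other 4 wild-type pools and all Pit1dw/dw pools lay above them. The log2 change was -0.67 (SE 0.18, 1.59-fold lower, adjusted p = 0.0219 by limma), -0.69 without Prop1df/df pools 1, 2 and 3 (adjusted p = 0.132, with 2 pools left), and -0.83 without wild-type pool 5 (adjusted p = 0.00144). In Pit1dw/dw it was -0.22 (adjusted p = 0.840), and between the mutants -0.45 (adjusted p = 0.156).

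The other subunits of the same complex gave other values. In Prop1df/df, Ssr1 changed by -0.057, Ssr2 by -0.26 and Ssr3 by 0.089, and none passed. All 3 probe sets of Ssr4 passed there when each probe set was fitted on its own, at -0.67, -0.66 and -0.64. The one at -0.66 (1427096_s_at) is dim, at 4.15 to 4.68 in wild type and 3.28 to 4.03 in Prop1df/df. The one at -0.64 (1435709_at) was also lower in Pit1dw/dw, at 4.88 to 5.445 against 5.55 to 5.90 in wild type, without passing. In Prop1df/df it was 4.62 to 5.53, overlapping Pit1dw/dw. The call of Ssr4, and that of Sdf2l1, was lost without wild-type pool 1, 2 or 4 or Prop1df/df pool 1, so that 0 members passed. In these 4 fits Ssr4 changed by -0.63 to -0.58 (adjusted p = 0.0571 to 0.0644 by limma) and Sdf2l1 by -0.63 to -0.50 (adjusted p = 0.0518 to 0.0923). Without Prop1df/df pool 2, 1 member passed (Ssr4, with Sdf2l1 at an adjusted p of 0.0701), without pool 5, 1 did (Sdf2l1, with Ssr4 at 0.0511), and without wild-type pool 5, 4 did (Ssr4, Sdf2l1, Atf6 and Xbp1).

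Spcs3, a signal peptidase subunit, had the smallest p of its role in Pit1dw/dw. Its signals were 7.91, 8.04, 7.47, 7.96 and 7.80 in wild type, 7.67, 7.78, 7.64, 7.67 and 7.71 in Pit1dw/dw, and 7.55, 7.78, 7.62, 7.59 and 7.57 in Prop1df/df. As for Manf, wild-type pool 3 was below all Pit1dw/dw pools and the other 4 wild-type pools were above them. The log2 changes were -0.14 (SE 0.11, adjusted p = 0.813) and -0.21 (adjusted p = 0.232). Sec61a1, the channel itself, averaged 10.76 ± 0.46 in wild type, 10.74 ± 0.11 in Pit1dw/dw and 10.86 ± 0.25 in Prop1df/df (SD, n = 5 each). Spcs1 and Spcs2 gave -0.065 and 0.022 in Pit1dw/dw and -0.042 and -0.12 in Prop1df/df, and Sec61b gave -0.053 and -0.13.

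The 2 mutants were also compared with each other. In limma's test 0 of 35 members passed, against 1139 of all genes (6.26%), and 3 had an unadjusted p under 0.05 (20.1% of all genes): Ern1 and Dnajb11, higher in Prop1df/df, and Ssr4, lower. Groups did not overlap for 2 members, Ern1 and Ssr4 (8.50% of all genes). In Prop1df/df against wild type this held for 0 members (8.01% of all genes). Dnajb11, a BiP co-chaperone, averaged 7.07 ± 0.15 in Pit1dw/dw and 7.35 ± 0.11 in Prop1df/df (SD, n = 5 each), a difference of 0.28 (adjusted p = 0.220).

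How the pools themselves differed was read from the members' median deviation from their 15-pool means. Wild-type pools 1 to 5 were at 0.13, 0.30, -0.12, 0.11 and 0.063 log2 units. Pit1dw/dw pools were at -0.035, 0.0077, -0.079, 0.062 and -0.010, and Prop1df/df pools at -0.13, -0.027, 0.020, -0.077 and -0.062. The wild-type group thus spanned a wider range than either mutant group, and wild-type pool 3 was below 9 of the 10 mutant pools.

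Markers of other tissue differed between the same pools. The summed log2 signal of 6 fibroblast and matrix genes was lowest in wild-type pool 2 (53.2), was 59.0 to 60.9 in the other wild-type pools and 57.5 to 61.3 in Pit1dw/dw, and was 62.2 to 63.8 in Prop1df/df. Of these 6 genes, 4 passed as higher in Prop1df/df against wild type, and 0 in Pit1dw/dw or in Prop1df/df without pools 1, 2 and 3 in limma's test (Dcn 0.43, adjusted p = 0.159, and Postn 0.96, adjusted p = 0.226). All 6 were above the median of all values in 13 of the pools. The summed signal of 6 measured sensory ganglion and Schwann cell genes was 55.8 in wild-type pool 3 and 24.9 to 30.1 in the other wild-type pools. It was 29.9 to 51.0 in Pit1dw/dw and 26.8 to 53.7 in Prop1df/df. The sum of 7 bone and cartilage genes was 29.2 to 48.0, 34.1 to 50.01 and 42.1 to 56.4 in the same order, and 2 of them rose in Prop1df/df, of which Col2a1 passed without those pools (2.50, adjusted p = 0.00807) and Matn1 did not (0.73, adjusted p = 0.104). The sum of 5 neural lobe and hypothalamus genes was 25.2 to 26.8 in wild type, 24.2 to 25.1 in Pit1dw/dw and 23.8 to 24.5 in Prop1df/df, so both mutant groups lay below every wild-type pool. Much of this sum is dim signal. In a wild-type pool 1 to 3 of the 5 genes exceeded the median of all values, and in a mutant pool 1 to 2. Nkx2-1 and Avp were below it in every pool, and Oxt lay near it (mean 4.49 in wild type). Of these genes, Col25a1 (-0.97, adjusted p = 0.0103) and Oxt (-0.47, adjusted p = 0.0398) fell in Prop1df/df, and Oxt lost its call without the 3 pools (-0.39, adjusted p = 0.157). The B cell gene Cd79a was lower in both mutants (-1.37, adjusted p = 0.000953, and -1.05, adjusted p = 0.00128), as was the muscle gene Actn2 (-1.01, adjusted p = 0.0194, and -1.48, adjusted p = 0.000138), each 1 of its list of 3 and of 5 measured genes. Both, and Col25a1, passed without the 3 pools. Without the pools with a Prph signal above 7 (Prph is a sensory neuron filament), 1 member (Sdf2l1, -0.80) passed in Prop1df/df. With the mean signals of the ganglion list and the bone list added to the fit, 0 passed, and Ssr4 changed by -0.63 (adjusted p = 0.0986). The part of these tissues in the members' values was not otherwise tested.

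**Figure D3:**
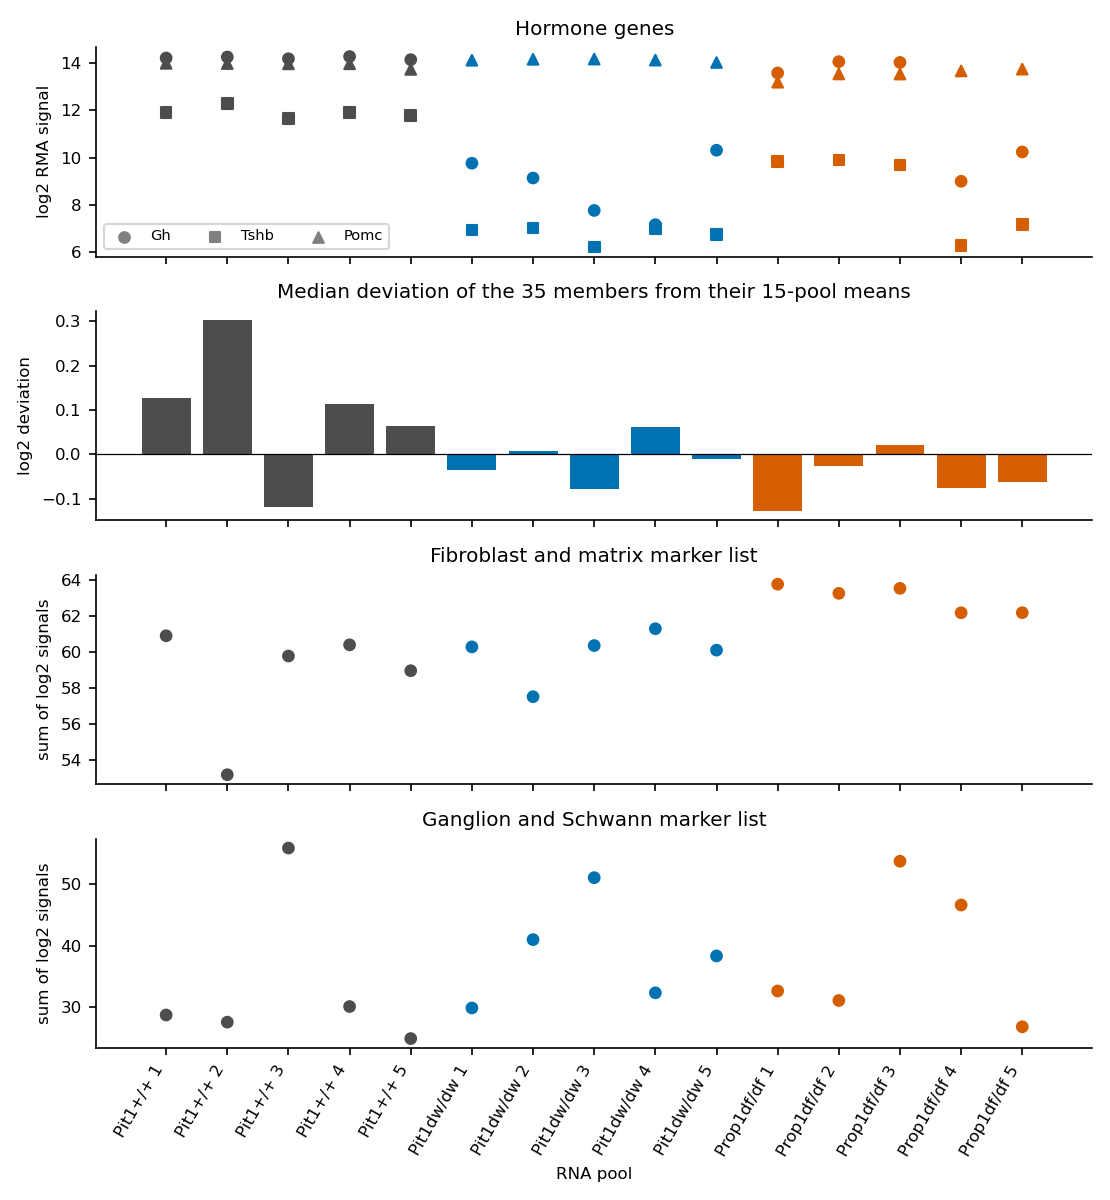
From top to bottom, for each of the 15 pools (x axis): log2 signals of Gh, Tshb and Pomc, the median deviation of the 35 members from their 15-pool means, and the summed log2 signals of the fibroblast and matrix list and of the ganglion and Schwann list. Prop1df/df pools 1 to 3 have Gh near the wild-type level but Tshb below it. The members' deviation is highest in wild-type pool 2 (0.30), and the Prop1df/df pools have the highest matrix sums.

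Other genes of the same pathway were taken from 6 lists of 86 genes, of which 83 were measured. In Pit1dw/dw against wild type 0 of 83 passed in limma's test (0.770% of all genes) and 6, all lower, had an unadjusted p under 0.05 (8.46% of all genes). Their median log2 change was -0.049, against -0.020 over all genes. In Prop1df/df against wild type 10 of 83 passed, 9 lower and 1 higher, against 10.6% of all genes (7.31% lower and 3.25% higher), with a median of -0.17 against -0.039. The count is near that background and is no result about the pathway. The genes below are described one by one. Between the mutants 2 passed, both lower in Prop1df/df, against 6.26% of all genes.

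The genes that fell in Prop1df/df were spread over all 6 lists. Srp68, a subunit of the signal recognition particle that brings ribosomes to the ER, averaged 7.96 ± 0.24 against 8.45 ± 0.19 (SD, n = 5 each; log2 change -0.50, adjusted p = 0.0176 by limma). Rpn2, a subunit of the oligosaccharyltransferase that attaches glycans, averaged 8.88 ± 0.19 against 9.56 ± 0.43 (-0.68, adjusted p = 0.0156). Pdia5, a disulfide isomerase, averaged 6.34 ± 0.26 against 7.02 ± 0.20 (-0.68, adjusted p = 0.00539). Its groups did not overlap in any pool.

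Derl1 and Selenos belong to the channel that pulls misfolded proteins out of the ER, and their log2 changes were -0.38 and -0.47 (adjusted p = 0.0324 and 0.0217 by limma). Chac1, a target of CHOP and ATF4 that degrades glutathione, was dim, at 3.25 ± 0.30 against 3.74 ± 0.07 (SD, n = 5 each). Of the membrane-bound transcription factor Creb3, the change was -0.71 (SE 0.11, adjusted p = 0.000477). The coat protein Sec31a, which buds vesicles towards the Golgi, and the cargo lectin Lman1 changed by -0.69 and -0.40 (adjusted p = 0.0441 and 0.0419).

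Ppib, the lumenal prolyl isomerase cyclophilin B, was the gene that rose, from 9.49 ± 0.23 to 10.11 ± 0.16 (SD, n = 5 each; log2 change 0.62, adjusted p = 0.0115 by limma). It acts on procollagen. The matrix marker list was highest in the same group, and its part in the rise was not tested. In Pit1dw/dw against wild type these 10 genes gave log2 changes of -0.35 to 0.29, none past the threshold. Between the mutants, Creb3 (-0.52, adjusted p = 0.00703) and the ER calcium regulator Wfs1 (-0.68, adjusted p = 0.0363) were lower in Prop1df/df. Without Prop1df/df pools 1, 2 and 3, 2 of the 83 genes passed against wild type, Creb3 (-0.72, adjusted p = 0.0148) and Pdia5 (-0.72, adjusted p = 0.0298). The other 8 named above kept their direction but not their call, with adjusted p from 0.0852 (Srp68) to 0.180 (Lman1). Against Pit1dw/dw 0 passed in limma's test (Creb3 at an adjusted p of 0.0919 and Wfs1 at 0.224). Without wild-type pool 5, 26 passed against wild type. Against wild type, 5 genes passed when wild-type pool 1 or 4 was left out, and 6 when wild-type pool 2 or Prop1df/df pool 2 was. Between the mutants, 4 passed without wild-type pool 5 or Prop1df/df pool 3, and 1 without Pit1dw/dw pool 2, 3, 4 or 5 or Prop1df/df pool 1, 2 or 5. Over the 28 alternative settings, Pdia5 kept its call in Prop1df/df against wild type in 28 and Creb3 in 27, whereas Lman1 lost it in 16 and had the opposite sign in 1, and Sec31a lost it in 18 of 27. Derl1 lost it in 11 of 28 and was at -0.057 (adjusted p = 0.869) without probe sets of the suffix _x, _s or _a. The call was lost in 8 of 27 for Chac1, 7 of 27 for Selenos, 4 of 28 for Srp68, 3 of 27 for Rpn2 and 3 of 28 for Ppib.

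**Figure D4:**
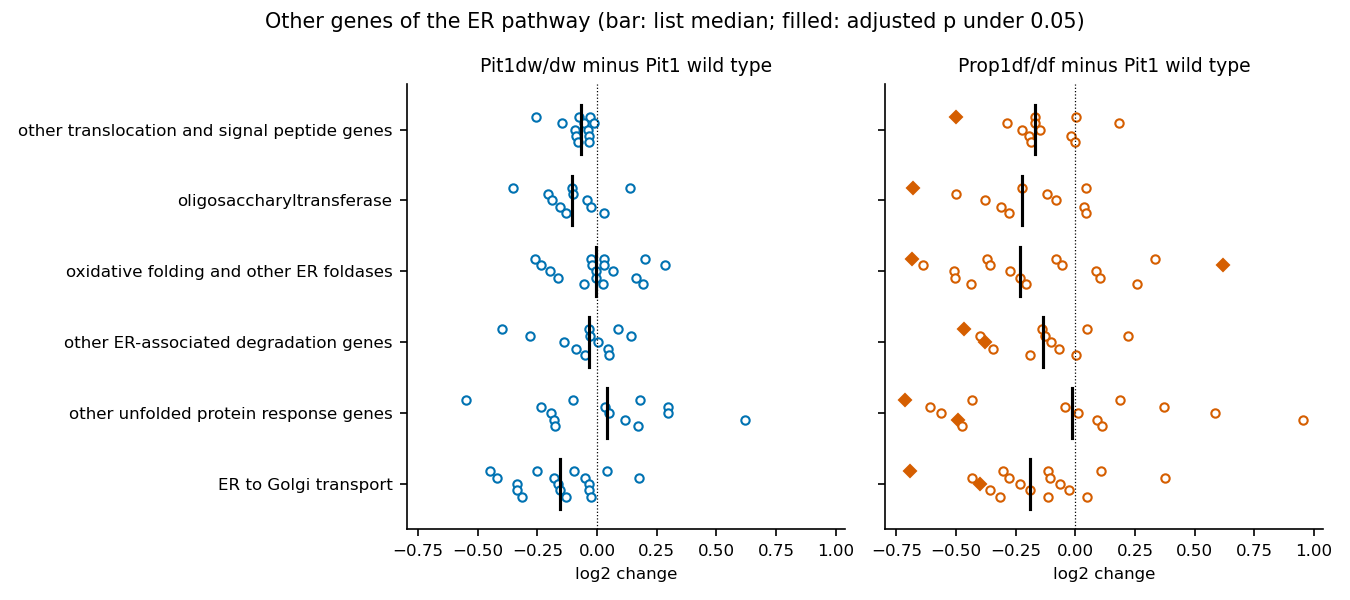
Log2 change (x axis) of 83 further ER genes in 6 lists (y axis), in Pit1dw/dw and Prop1df/df against wild type. Each point is a gene, the black bar is the list median, and filled diamonds passed an adjusted p of 0.05. No gene is filled on the left, and 10 are on the right, with Ppib the only filled one above 0.

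The choice of probe set matters for several members. The 35 members have 87 probe sets, and 26 members have more than 1. With each probe set fitted on its own, 10 of the 87 passed in Prop1df/df against wild type, where 8.12% of all 34945 probe sets did, and 4 of the 87 between the mutants, where 5.15% did. For 4 members, a probe set with a lower signal than the one used passed in Prop1df/df against both other groups, with no overlap of pools, while the one used did not pass. A probe set of Hyou1 (1423290_at) averaged 5.11 in Prop1df/df against 3.99 in wild type and 3.99 in Pit1dw/dw, a log2 change of 1.11 from wild type. A probe set of Pdia3 (1445330_at) averaged 5.34, against 6.60 and 6.42. A probe set of Sec61a1 (1455987_at) averaged 4.86, against 6.39 and 6.12. A probe set of Dnajc3 (1419162_s_at) averaged 7.20, against 7.85 and 7.87. Their changes thus went in both directions. Averaged over all its probe sets, Pdia3 changed by -0.63 (adjusted p = 0.0029 by limma) and Hyou1 by 0.40 (adjusted p = 0.031) in Prop1df/df against wild type. The probe sets used gave 0.0052 and -0.13. In Pit1dw/dw against wild type 0 of the 87 probe sets passed in limma's test (0.478% of all probe sets), and 4 had an unadjusted p under 0.05. The share of all probe sets under that cut was not computed. Over all genes, each read from 1 probe set, it was 8.46%. In Prop1df/df, strain and genotype cannot be told apart.

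**Figure D5:**
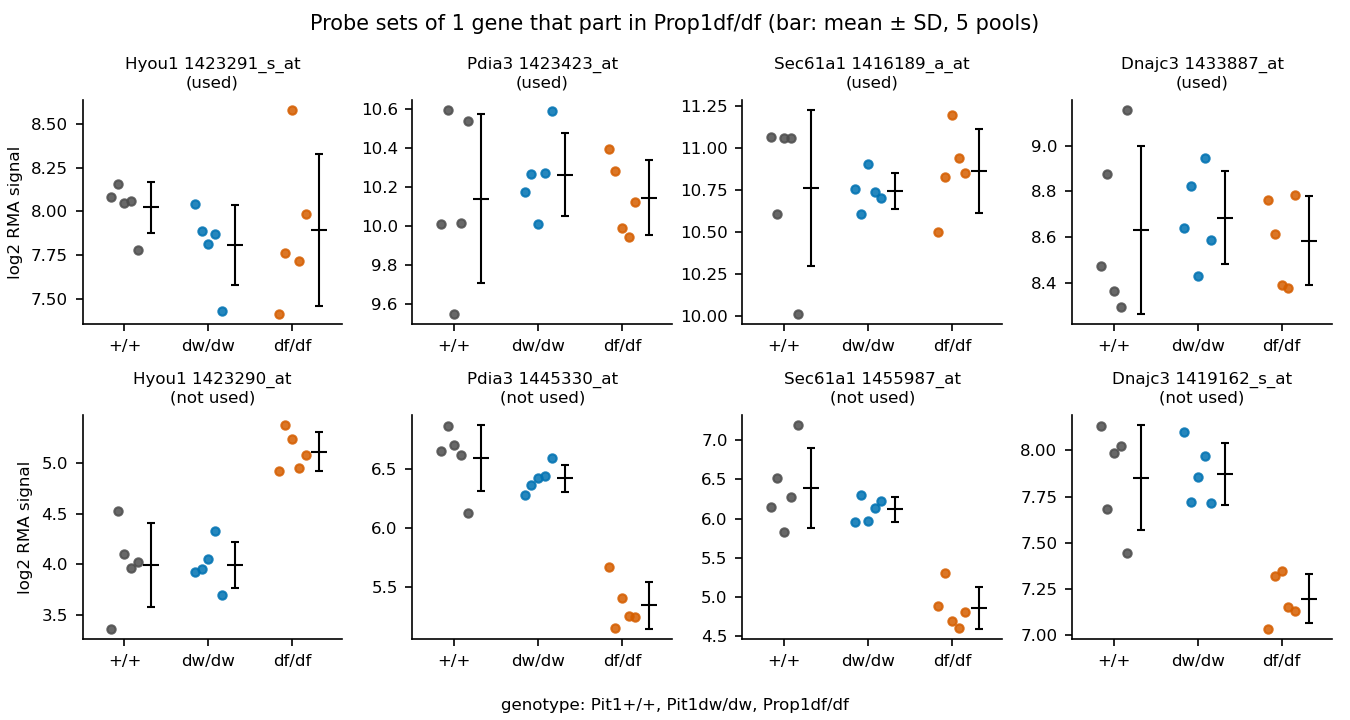
Log2 RMA signal (y axis) by genotype (x axis) for the probe set used (top) and another probe set (bottom) of Hyou1, Pdia3, Sec61a1 and Dnajc3. Points are pools, and bars are the mean and SD of 5 pools. In the bottom row the Prop1df/df pools stand clear of both other groups, and in the top row they overlap with them.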

How the data were processed

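RNA pools from 15 newborn pituitary samples were measured on 1 array each. The authors deposited log2 signals made with RMA, per the submitters' processing notes. The software and settings of RMA were not given in the sources used here. With no counts behind a signal, precision is limited by the number of arrays. Array medians were 4.31 to 4.43, and no 2 arrays were identical.

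Of 45101 probe sets, 64 controls were set aside, and 34945 of the others name 1 gene in the platform annotation. Where several name the same gene, the one brightest on average over the 15 arrays stood for it, which gave 18193 genes. A model of the 3 group means was fitted over all genes and arrays (lmFit and eBayes of limma 3.58.1, R 4.3.3, two-sided), and p was adjusted by Benjamini-Hochberg over 18193 genes, with a threshold of 0.05. Intervals are 95% moderated intervals. The procedure was tested on simulated data. The simulated noise was independent between genes and pools, and only Pit1dw/dw against wild type was read. Tissue differences shared by many genes of a pool were thus not covered. Members, pathway lists and marker lists were chosen with earlier results of these data known, so no p is adjusted over a list alone. Lists are described by counts and medians. Every member may be named. Pool values are given for members past the threshold, for the smallest p of each role in Pit1dw/dw against wild type, and for Hspa5, Xbp1 and Ddit3. Genes of the pathway lists are named where they passed, at most 3 a list and comparison. Of the lists, 5 marker genes and 3 pathway genes were not analysed here.

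28 alternatives were run: each of 15 pools left out, and 13 other settings of scaling, probe sets, filter, prior, weights, samples, block and covariates. Leaving out Prop1df/df pools 1, 2 and 3 was chosen after seeing the data, as was running alternatives on the pathway and marker genes.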

Additional observations from a re-analysis of the deposited data

Results flagged for a closer look

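Over 105 groups of 5 pools (35 members in 3 groups), 2 held a pool far from the others (1.90%, where chance gives about 1 in 20). Hyou1 in wild-type pool 5 was 7.78, below the next pool at 8.05. Creb3l2 in Prop1df/df pool 4 was 8.89, above the next pool at 8.53.

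Probe sets of the members that the comparisons did not use gave 12 calls when each probe set was fitted on its own, 8 of 52 in Prop1df/df against wild type and 4 of 52 against Pit1dw/dw. Over all probe sets 8.12% and 5.15% passed, and whether the members' share differs from that was not tested. Against Pit1dw/dw, Prop1df/df had log2 changes of -0.68 for Dnajc3 (1419162_s_at), 1.11 for Hyou1 (1423290_at), -1.08 for Pdia3 (1445330_at) and -1.25 for Sec61a1 (1455987_at). Against wild type the same probe sets gave -0.66 for Dnajc3, 1.11 for Hyou1, -1.26 for Pdia3 and -1.53 for Sec61a1. Against wild type, 4 further probe sets passed, at 0.44 for Sel1l (1453559_a_at), -0.59 for Ssr1 (1441327_a_at), -0.64 for Ssr4 (1435709_at) and -0.66 for Ssr4 (1427096_s_at). The 2 Ssr4 probe sets had the direction of the one used.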

How the results depend on the processing

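In Pit1dw/dw against wild type, 0 members passed in limma's test under all 28 alternatives, as in the reported fit (where 1 had an unadjusted p under 0.05). The members' median change kept its sign in all 28 in each of the 3 comparisons, at -0.14 to -0.032, -0.19 to -0.046 and -0.15 to -0.0040. In Prop1df/df against wild type, the count of members past the threshold, 2 as reported, was 4 with all probe sets of a gene averaged, 8 with array weights (7 lower, and Sel1l higher at 0.39), 1 without pools with Prph above 7, and 0 with only the 2 groups compared, with the ganglion and bone covariates or without Prop1df/df pools 1, 2 and 3. It was 0 to 4 with 1 pool left out. Between the mutants, 0 as reported, it was 2 with the mean of probe sets (Hyou1, Pdia3), 1 (Hyou1) without the probe sets with the suffix _x, _s or _a, and 1 (Ern1) with array weights or the covariates.

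Of the 83 pathway genes, 2 passed in Pit1dw/dw with array weights. In Prop1df/df against wild type, 10 as reported, 18 passed with centring on array medians, 30 with array weights, 5 with only the groups compared, 5 with the covariates, 6 without pools with Prph above 7, 2 without Prop1df/df pools 1, 2 and 3, and 5 to 26 with 1 pool left out. Between the mutants, 2 as reported, 4 passed with centring, 6 with the mean of probe sets, 1 without the suffixed probe sets, 11 with array weights, 1 with the covariates, 0 without pools with Prph above 7, 0 without Prop1df/df pools 1, 2 and 3, and 1 to 4 with 1 pool left out (4 without wild-type pool 5). Over all genes, the counts of 140, 1920 and 1139 ran from 51 to 571, from 890 to 4297 and from 503 to 2390. Lman1 in Prop1df/df against wild type was 0.61 with the mean of its probe sets. Of 387 values of the named genes past the threshold, 284 kept direction and call, 102 lost the call and 1 reversed. The causes were not tested.

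Wild-type pool 5 had the lowest array weight (0.243) and the lowest median correlation with its group (0.964). Replicate numbers do not pair the samples, with same-number correlations of -0.31 to 0.67. With the replicate number as a block, 0, 2 and 0 members passed, and Sec31a lost its call (adjusted p = 0.0637).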
